A study of Homo sapiens with 8 samples.

Results

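The DNA replication machinery of CUTLL1 cells was followed through 50 genes, matched to the arrays by gene symbol. They were chosen by name for their place in the copying of the genome, with earlier results of these data known. Counts set beside the share of all probe sets therefore describe this list. All 50 were measured, out of 17687 named genes, each by 1 of the 21448 probe sets of the Clarion S Human array, and none had a mean signal below the median probe set, at 5.31 on the log2 scale. They were divided by step into 9 genes of origin recognition and licensing, 17 of the replicative helicase and its activation, 10 of the polymerases and primase, and 14 of the sliding clamp and its loader, single-strand binding, Okazaki fragment maturation and chromatin assembly. CUTLL1 is a human T-cell line from a T-ALL carrying a t(7;9) rearrangement, which leaves NOTCH1 constitutively active. The cells had been transduced with a lentivirus carrying the miR-17-92 cluster and GFP (miR-17-92 cells) or with the same backbone without the cluster (Empty-V cells), and were sorted by flow cytometry. Both kinds of cell were then kept for 2 days with the γ-secretase inhibitor (GSI) at 1 µM, which stops the cleavage that releases active NOTCH1, or with its solvent DMSO, giving 4 groups of 2 arrays: miR-17-92 GSI, miR-17-92 DMSO, Empty-V GSI and Empty-V DMSO. The 2 arrays of a group, named set 1 and set 2, came from separate experiments on a single cell line, so p-values measure the spread between these samples only.

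Before a cell enters S phase, the origin recognition complex (ORC) marks the sites where replication can start, and CDC6 and CDT1 load the ring-shaped MCM helicase on them, a step that geminin (GMNN) blocks once S phase has begun. CDC7 kinase with DBF4, CDC45 and the GINS complex turn the loaded ring into a moving helicase. Polymerase alpha with primase starts each strand, polymerases delta and epsilon extend it on the PCNA clamp, and RPA covers the exposed single strand. Many of these genes are transcribed at the G1 to S boundary under E2F factors, so in bulk RNA a lower signal from fewer cycling cells and a lower signal per cell cannot be told apart.

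E2F-type words were looked for in the promoters of these genes, since the members are known as a group that is transcribed together. RefSeq windows of 250 bases before to 50 after the transcription start (GRCh38.p14) matched 44 of the 50 genes. The words sought were TTTCCCGC, TTTCGCGC, TTTGCCGC and TTTGGCGC, on either strand and with overlaps allowed. At least 1 was present in 20 of the 44 genes (45.5%), against 1090 of the 27305 genes with a window (3.99%). The word CCAAT, the core of NF-Y boxes, was present on either strand in 25 of 44 (56.8%), against 39.7% of all genes with a window. The E-box CACGTG was present in 9 (20.5%), against 8.77%. The words TTTGAA and TTCGAA, which occur in the CHR element of G2 and mitotic genes, were present in 3 (6.82%), against 19.5%. A word match is a description of the sequence and not a bound site. Below are 100 bases upstream of the start of 6 members described in the results, 5′ to 3′ on the strand of the gene, with the matched words in capitals. For 5 of them these are the bases next to the start, and for MCM6 the stretch was moved to positions −160 to −61 from the start so that it holds all of its matches. They show 1 match in 5 of the promoters and, in MCM6, 2 pairs of overlapping matches. Only members with a match wholly before the start were printed, so a match in each was fixed by that choice. Members without a word in the window, such as POLD2, RFC2 and CHAF1B, are not shown.
GMNN promoter, chr6:24775313-24775412, plus strand: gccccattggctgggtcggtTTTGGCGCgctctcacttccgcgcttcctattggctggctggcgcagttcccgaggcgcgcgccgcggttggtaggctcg
CDT1 promoter, chr16:88803689-88803788, plus strand: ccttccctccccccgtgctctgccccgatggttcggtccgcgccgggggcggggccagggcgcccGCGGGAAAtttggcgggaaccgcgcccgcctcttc
GINS2 promoter, chr16:85688955-85689054, minus strand: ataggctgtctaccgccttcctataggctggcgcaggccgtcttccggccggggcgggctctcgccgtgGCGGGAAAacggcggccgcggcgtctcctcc
MCM6 promoter, chr2:135876504-135876603, minus strand: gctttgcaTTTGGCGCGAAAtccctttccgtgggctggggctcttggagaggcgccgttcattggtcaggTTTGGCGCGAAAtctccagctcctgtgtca
POLA2 promoter, chr11:65261862-65261961, plus strand: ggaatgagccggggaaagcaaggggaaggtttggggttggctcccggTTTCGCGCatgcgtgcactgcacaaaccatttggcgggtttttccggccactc
RFC3 promoter, chr13:33818049-33818148, plus strand: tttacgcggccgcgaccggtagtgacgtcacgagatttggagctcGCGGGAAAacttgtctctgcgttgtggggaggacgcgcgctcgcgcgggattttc

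The cluster itself gives 6 mature miRNAs, shown with the seed, bases 2 to 8, in capitals, since the seed groups them by the transcripts they can pair with. Their sequences are those of RefSeq, encoded on the plus strand of chromosome 13.
hsa-miR-17-5p: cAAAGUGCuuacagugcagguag
hsa-miR-18a-5p: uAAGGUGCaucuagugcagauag
hsa-miR-19a-3p: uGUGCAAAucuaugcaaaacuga
hsa-miR-20a-5p: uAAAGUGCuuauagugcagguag
hsa-miR-19b-3p: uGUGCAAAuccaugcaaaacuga
hsa-miR-92a-3p: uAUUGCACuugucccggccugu
The seed AAAGUGC is shared by miR-17-5p and miR-20a-5p, and GUGCAAA by miR-19a-3p and miR-19b-3p. The seeds of miR-18a-5p and miR-92a-3p each stood alone.

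Blockade of NOTCH1 was checked in 6 of its targets. NRARP, HES1, DTX1, HES4 and NOTCH3 fell under GSI in both kinds of cell, with NRARP lower by 6.05 log2 units in miR-17-92 cells and 5.76 in Empty-V cells, whereas MYC did not pass (log2 fold change −0.34 in miR-17-92 cells, adjusted p = 0.444, and −0.63 in Empty-V cells, adjusted p = 0.079, limma). Replicate arrays correlated at 0.994 to 0.995 across probe sets and array medians lay between 5.30 and 5.36. All 11 measured T-lineage markers had group means at or above 5.31 in every group, while 2 or 3 of 4 B-lineage, 1 or 2 of 5 myeloid, 2 of 6 stromal and epithelial and 1 of 3 erythroid markers did. The T-lineage markers did not move one way under GSI. CD2 and CD5 rose in both kinds of cell (log2 fold changes 1.5 and 0.83 in miR-17-92 cells, and 2.95 and 1.23 in Empty-V cells), CD1A rose in Empty-V cells (0.91), PTCRA fell in both (−1.96 in miR-17-92 and −1.80 in Empty-V cells), and the other 7 did not pass. Their summed log2 level was higher under GSI (123.62 to 124.32 in miR-17-92 GSI and 122.75 to 124.45 in Empty-V GSI arrays) than under DMSO (120.87 to 121.57 in miR-17-92 and 119.64 to 120.90 in Empty-V arrays), and its part in the results below was not tested.

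The replication genes had their lowest signal in Empty-V cells under GSI. Averaged over the 50 genes, the log2 signal was 10.76 and 10.77 in the miR-17-92 GSI arrays, 10.91 and 10.99 in the miR-17-92 DMSO arrays, 10.35 and 10.24 in the Empty-V GSI arrays, and 10.95 and 11.00 in the Empty-V DMSO arrays. Both Empty-V GSI arrays thus stood below the other 6. Gene by gene, both Empty-V GSI arrays were below all 6 other arrays for 40 of the 50 genes, against 10.1% of all probe sets. These were 6 of 9 licensing genes, 13 of 17 helicase genes, 8 of 10 polymerase genes and 13 of 14 genes of the clamp and later steps. The lowest group mean was that of Empty-V GSI in 46 genes, against 27.8% of all probe sets, of miR-17-92 GSI in 3 and of Empty-V DMSO in 1. The 2 Empty-V GSI arrays also differed from each other more than other replicates did, with a median absolute difference over the 50 genes of 0.25, against 0.15 in miR-17-92 GSI, 0.12 in miR-17-92 DMSO and 0.11 in Empty-V DMSO.

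**Figure D1:**
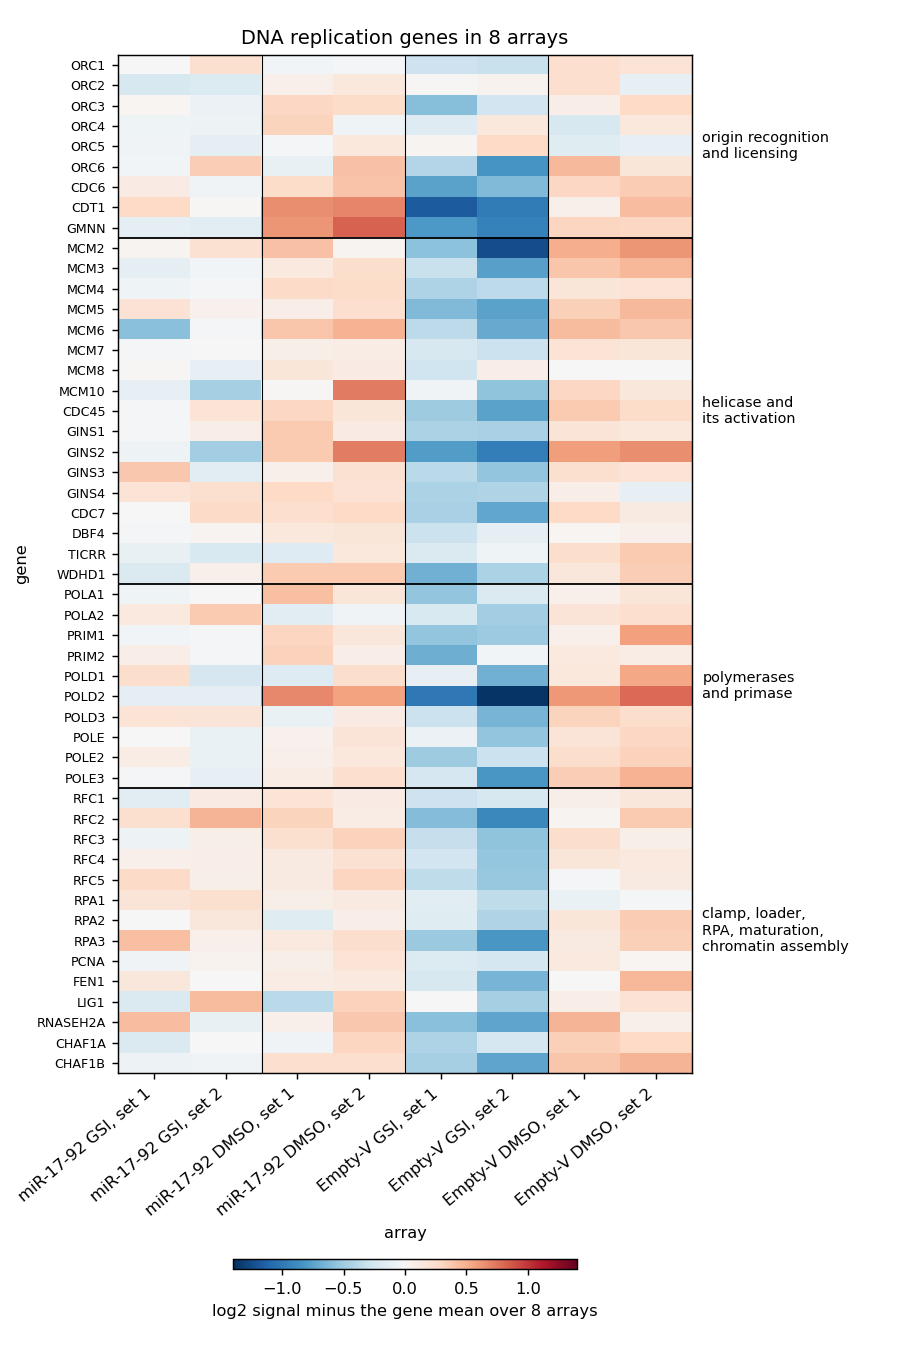
Log2 signal of each of the 50 replication genes (rows, divided by step) in each of the 8 arrays (columns), minus the mean of the gene over the 8 arrays; blue is lower and red is higher. The 2 Empty-V GSI columns are blue for most genes, and both lie below the other 6 columns for 40 of the 50.

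The response of control cells to GSI was asked first. In Empty-V cells, 21 of the 50 replication genes fell under GSI and none rose at an adjusted p under 0.05 (limma, Benjamini-Hochberg over all probe sets), against 3.66% of all probe sets called lower. The median log2 fold change of the 50 genes was −0.63, from −1.88 to 0.30, where the median over all probe sets was 0.01, and 48 of the 50 were below 0. At an unadjusted p under 0.05, 40 were lower, against 11.1% of probe sets. The Empty-V GSI and DMSO arrays did not overlap in 47 genes, 46 of them lower under GSI, against 24.5% of probe sets lower without overlap. Within set 1 alone the median difference was −0.60 and within set 2 alone −0.73, against 0.01 over all probe sets in each set. In both sets 46 genes were lower, a count on the same arrays as above and without a share of all probe sets beside it. With the set number as a block, 10 genes passed (CDC6, CDT1, GMNN, MCM2, MCM3, MCM5, CDC45, GINS2, POLD2 and CHAF1B), against 1.79% of probe sets. CDT1, GMNN, MCM5, GINS2 and POLD2 passed whichever of the 8 arrays was left out. Leaving out an Empty-V array leaves that group with 1 array, which is then assumed to vary like the other groups. The count was 5 without Empty-V DMSO replicate 2, 7 without Empty-V GSI replicate 2 and 10 without Empty-V DMSO replicate 1.

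The same treatment was then examined in cells carrying the cluster. GMNN was the 1 member that fell in miR-17-92 cells, and none rose, against 0.606% of all probe sets called lower, and it did not pass with the set as a block (adjusted p = 0.104), nor when any one of the miR-17-92 or Empty-V DMSO arrays was left out. The median log2 fold change was −0.15, from −0.86 to 0.36, against 0.00 over all probe sets, and 41 of the 50 genes were below 0. At an unadjusted p under 0.05, 7 were lower, against 6.42% of probe sets. The arrays did not overlap in 29 genes, 25 lower and 4 higher under GSI, where 21.9% of probe sets were lower and 22.8% higher without overlap. Across both kinds of cell, 15 members fell and none rose, against 3.48% of all probe sets called lower, with a median of −0.41 and 49 of 50 below 0, and 9 passed with the block, against 2.0% of probe sets.

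Whether the 2 responses differed was tested as an interaction. The log2 fold change under GSI was lower in Empty-V than in miR-17-92 cells for 45 of the 50 genes, and the median difference of the responses, miR-17-92 minus Empty-V, was 0.50, from −0.46 to 1.38, against 0.00 over all probe sets. No member passed at an adjusted p under 0.05 in limma, where 0.028% of all probe sets did. At an unadjusted p under 0.05, 20 members had a positive difference and none a negative one, against 6.57% of probe sets with a positive difference. With an intensity trend and robust prior limma called 2 members, a count without a share of all probe sets beside it. The largest differences were those of MCM2 (1.38 ± 0.34, SE, adjusted p = 0.217), POLD2 (1.14 ± 0.25, adjusted p = 0.216), RFC2 (1.10 ± 0.28, adjusted p = 0.228) and MCM5 (1.04 ± 0.23, adjusted p = 0.216). A difference in response between the 2 kinds of cell was therefore not established for any single gene. In simulated data the test recovered 3% of differences of 0.5 log2 units and 22% of differences of 1, so differences of such size would mostly be missed.

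**Figure D2:**
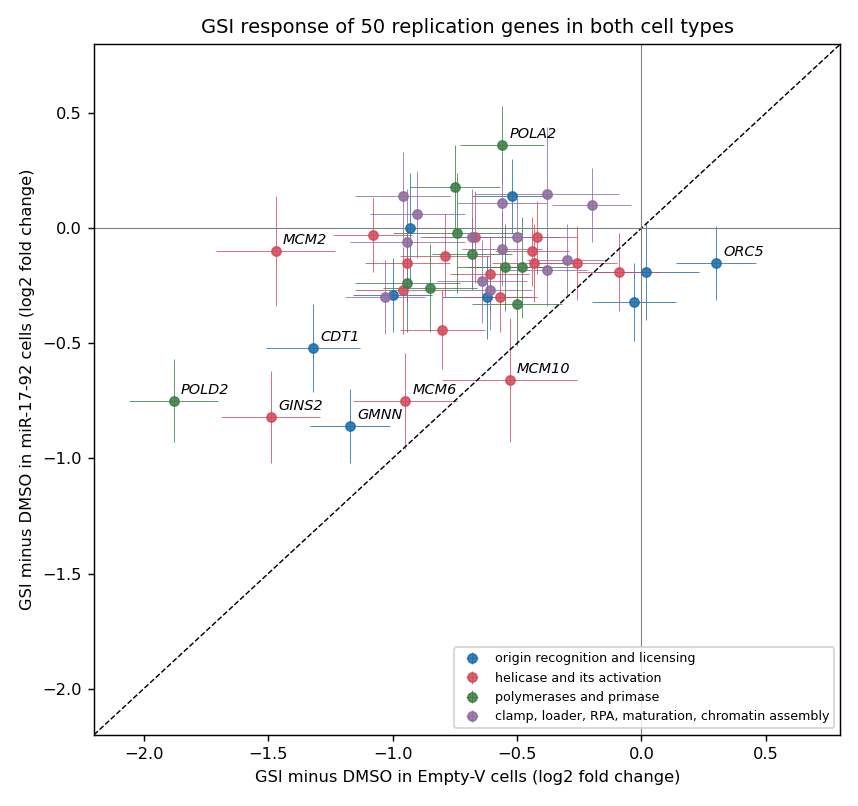
Log2 fold change of GSI over DMSO for each of the 50 genes in miR-17-92 cells (vertical axis) and in Empty-V cells (horizontal axis), coloured by step; bars are standard errors from limma and the dashed line marks equal responses. 45 of the 50 points lie above the line, and POLD2 lies farthest to the left, at −1.88 in Empty-V cells.

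The cluster was then compared with the empty vector at each treatment. Under GSI, CDT1, POLD2 and RFC2 were higher in miR-17-92 than in Empty-V cells and none was lower, 3 of 50 against 0.499% of all probe sets called higher. The median log2 fold change was 0.46, from −0.25 to 1.22, against −0.02 over all probe sets, and 46 genes were above 0. At an unadjusted p under 0.05, 31 were higher, against 8.67% of probe sets. The arrays did not overlap in 42 genes, 40 of them higher in miR-17-92 cells, against 22.2% of probe sets. The median difference was 0.38 within set 1 and 0.57 within set 2, against −0.01 and −0.02 over all probe sets. In both sets 42 genes were higher, a count on the same arrays as above and without a share of all probe sets beside it. With the set as a block none of the 3 passed (adjusted p = 0.0861 for CDT1, 0.0989 for POLD2 and 0.107 for RFC2), where 0.0373% of probe sets did, and leaving out any one array left at most 1. Under DMSO no member passed by limma in either direction, where 0.042% of all probe sets did, and 1 was higher at an unadjusted p under 0.05 (4.51% of probe sets). The median was −0.02, from −0.34 to 0.42, with 25 genes on each side of 0. The comparison under GSI uses the same Empty-V GSI arrays as the GSI comparison in Empty-V cells.

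**Figure D3:**
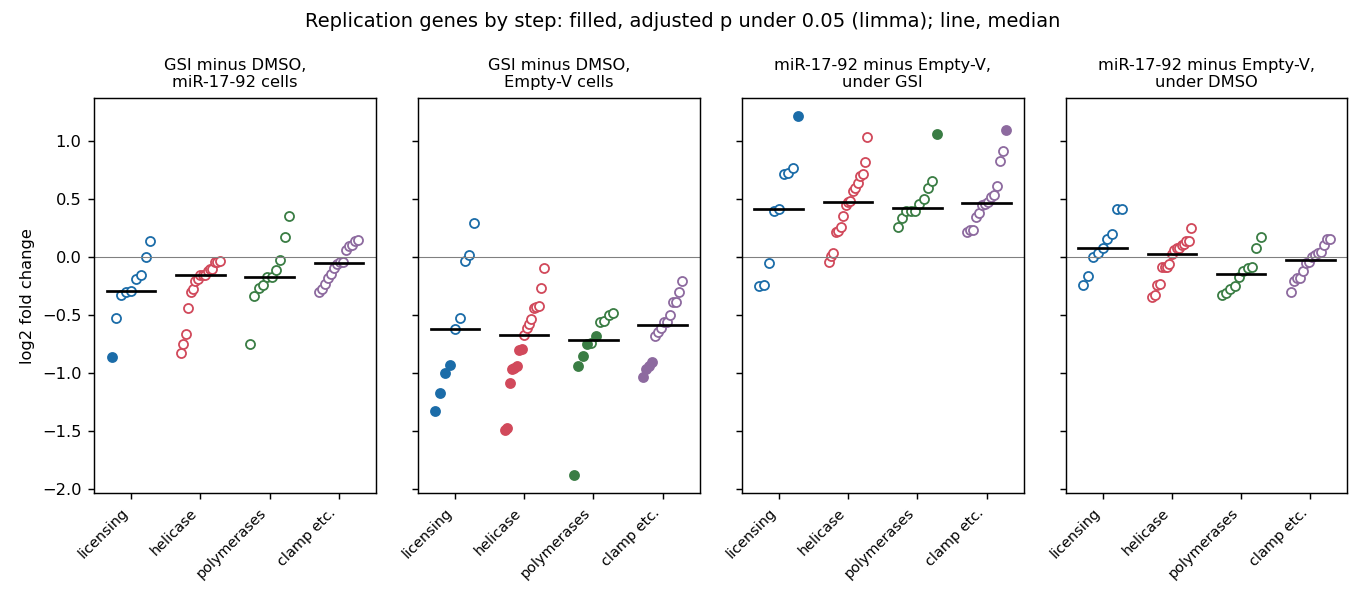
Log2 fold changes of the 50 genes by step (horizontal axis) in 4 comparisons (panels); each point is a gene, filled where the adjusted p was under 0.05 in limma, and the black line is the median of the step. The medians of the 4 steps under GSI lie between −0.29 and −0.05 in miR-17-92 cells and between −0.71 and −0.58 in Empty-V cells.

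Among the 9 licensing genes, CDT1, GMNN, CDC6 and ORC6 fell under GSI in Empty-V cells. The median of the step was −0.29 for GSI in miR-17-92 cells, −0.62 in Empty-V cells and 0.42 for miR-17-92 over Empty-V under GSI. CDT1, which brings the MCM ring to origins, had a log2 signal of 7.83 and 7.57 in miR-17-92 GSI, 8.21 and 8.24 in miR-17-92 DMSO, 6.39 and 6.58 in Empty-V GSI, and 7.63 and 7.99 in Empty-V DMSO arrays. The Empty-V GSI arrays were the lowest, by about 1 log2 unit or more, and the 2 groups under DMSO did not overlap. CDT1 was 2.51-fold lower under GSI in Empty-V cells (log2 fold change −1.32 ± 0.19, adjusted p = 0.00354) and 2.32-fold higher in miR-17-92 than in Empty-V cells under GSI (1.22 ± 0.19, adjusted p = 0.0286). Its change under GSI in miR-17-92 cells was −0.52 ± 0.19 (adjusted p = 0.235).

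GMNN, which encodes geminin, the inhibitor of CDT1, had 11.86 and 11.85 in miR-17-92 GSI, 12.62 and 12.82 in miR-17-92 DMSO, 11.20 and 11.05 in Empty-V GSI, and 12.30 and 12.29 in Empty-V DMSO arrays. No 2 groups overlapped, and both groups under GSI were below both under DMSO. GMNN fell by 0.86 ± 0.16 in miR-17-92 cells (adjusted p = 0.032) and by 1.17 ± 0.16 in Empty-V cells (adjusted p = 0.00312). CDC6, the ATPase that joins ORC to load the ring, had 11.36 and 11.20 in miR-17-92 GSI, 11.50 and 11.64 in miR-17-92 DMSO, 10.49 and 10.63 in Empty-V GSI, and 11.53 and 11.60 in Empty-V DMSO arrays. Its 4 DMSO arrays lay between 11.50 and 11.64, and it fell by 1.00 ± 0.16 under GSI in Empty-V cells (adjusted p = 0.0067), with −0.29 ± 0.16 in miR-17-92 cells (adjusted p = 0.455).

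The subunits of ORC varied among themselves under GSI in Empty-V cells, and ORC1 to ORC5 did not pass. ORC3 and ORC1 had log2 fold changes of −0.62 ± 0.18 (adjusted p = 0.0671) and −0.52 ± 0.16 (adjusted p = 0.0857), with both Empty-V GSI arrays below both Empty-V DMSO arrays. ORC2 and ORC4 had −0.03 ± 0.17 and 0.02 ± 0.21, and their Empty-V arrays overlapped. ORC5 had 12.36 and 12.28 in miR-17-92 GSI, 12.39 and 12.55 in miR-17-92 DMSO, 12.45 and 12.69 in Empty-V GSI, and 12.24 and 12.29 in Empty-V DMSO arrays. It was the 1 member whose Empty-V GSI arrays both lay above its Empty-V DMSO arrays, by 0.30 ± 0.16 (adjusted p = 0.32). ORC6, the subunit least tightly held in the human complex, fell by 0.93 ± 0.24 in Empty-V cells (adjusted p = 0.0491, and 0.0948 with the block) and had a log2 fold change of 0.00 ± 0.24 in miR-17-92 cells.

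Of the 17 helicase genes, 8 fell under GSI in Empty-V cells, namely MCM2, MCM3, MCM5, MCM6, CDC45, GINS2, CDC7 and WDHD1. The median of the step was −0.15 for GSI in miR-17-92 cells, −0.67 in Empty-V cells and 0.48 for miR-17-92 over Empty-V under GSI. For MCM2 to MCM7, the 6 subunits of the ring, these medians were −0.18, −0.96 and 0.40, all 6 had Empty-V GSI arrays below the Empty-V DMSO arrays, and 4 of the 6 passed. MCM5 had 11.77 and 11.63 in miR-17-92 GSI, 11.66 and 11.80 in miR-17-92 DMSO, 10.95 and 10.82 in Empty-V GSI, and 11.90 and 12.02 in Empty-V DMSO arrays. The miR-17-92 arrays overlapped between treatments (log2 fold change −0.03 ± 0.16, adjusted p = 0.958), while MCM5 was 2.11-fold lower under GSI in Empty-V cells (−1.08 ± 0.16, adjusted p = 0.0048). MCM2 had 9.11 and 9.28 in miR-17-92 GSI, 9.48 and 9.10 in miR-17-92 DMSO, 8.49 and 7.82 in Empty-V GSI, and 9.57 and 9.68 in Empty-V DMSO arrays. It was 2.77-fold lower under GSI in Empty-V cells (−1.47 ± 0.24, adjusted p = 0.00699), with arrays of that group 0.67 apart, the widest gap of any member in that group.

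MCM6 did not separate the 2 groups under GSI. It had 10.85 and 11.41 in miR-17-92 GSI, 11.83 and 11.93 in miR-17-92 DMSO, 11.07 and 10.73 in Empty-V GSI, and 11.88 and 11.82 in Empty-V DMSO arrays. Both groups under GSI overlapped and lay below both under DMSO. The log2 fold change was −0.75 ± 0.21 in miR-17-92 cells (adjusted p = 0.148) and −0.95 ± 0.21 in Empty-V cells (adjusted p = 0.0298, and 0.0642 with the block), and the interaction was 0.20 ± 0.30. MCM10, which helps to fire the assembled helicase, had −0.66 ± 0.27 in miR-17-92 cells and −0.53 ± 0.27 in Empty-V cells (adjusted p = 0.295 and 0.285, limma).

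GINS2 belongs to the 4-membered GINS complex, which holds CDC45 to the ring. Its log2 signal was 9.18 and 8.76 in miR-17-92 GSI, 9.61 and 9.96 in miR-17-92 DMSO, 8.47 and 8.28 in Empty-V GSI, and 9.83 and 9.90 in Empty-V DMSO arrays. The order followed the treatment in both kinds of cell, and GINS2 was 2.81-fold lower under GSI in Empty-V cells (−1.49 ± 0.20, adjusted p = 0.00295), with −0.82 ± 0.20 in miR-17-92 cells (adjusted p = 0.0943). GINS1, GINS3 and GINS4 ranged from −0.42 to −0.67 in Empty-V cells and none passed. WDHD1, which links the helicase to polymerase alpha, had 10.39 and 10.66 in miR-17-92 GSI, 10.96 and 10.96 in miR-17-92 DMSO, 9.92 and 10.15 in Empty-V GSI, and 10.75 and 10.93 in Empty-V DMSO arrays, and fell by 0.80 ± 0.17 in Empty-V cells (adjusted p = 0.0257, and 0.0525 with the block). CDC45 and the kinase gene CDC7 fell by 0.94 ± 0.17 and 0.79 ± 0.18 there, of which CDC7 did not pass with the block (adjusted p = 0.0718), while DBF4, the activating subunit of CDC7, had −0.26 ± 0.16 (adjusted p = 0.376).

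MCM8, which is a relative of the ring subunits with a role in repair by recombination, had the smallest estimate of the step for GSI across both kinds of cell, −0.14 ± 0.12. It had 14.59 and 14.46 in miR-17-92 GSI, 14.74 and 14.69 in miR-17-92 DMSO, 14.30 and 14.67 in Empty-V GSI, and 14.58 and 14.57 in Empty-V DMSO arrays, so that the Empty-V arrays overlapped (−0.09 ± 0.17, adjusted p = 0.819).

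**Figure D4:**
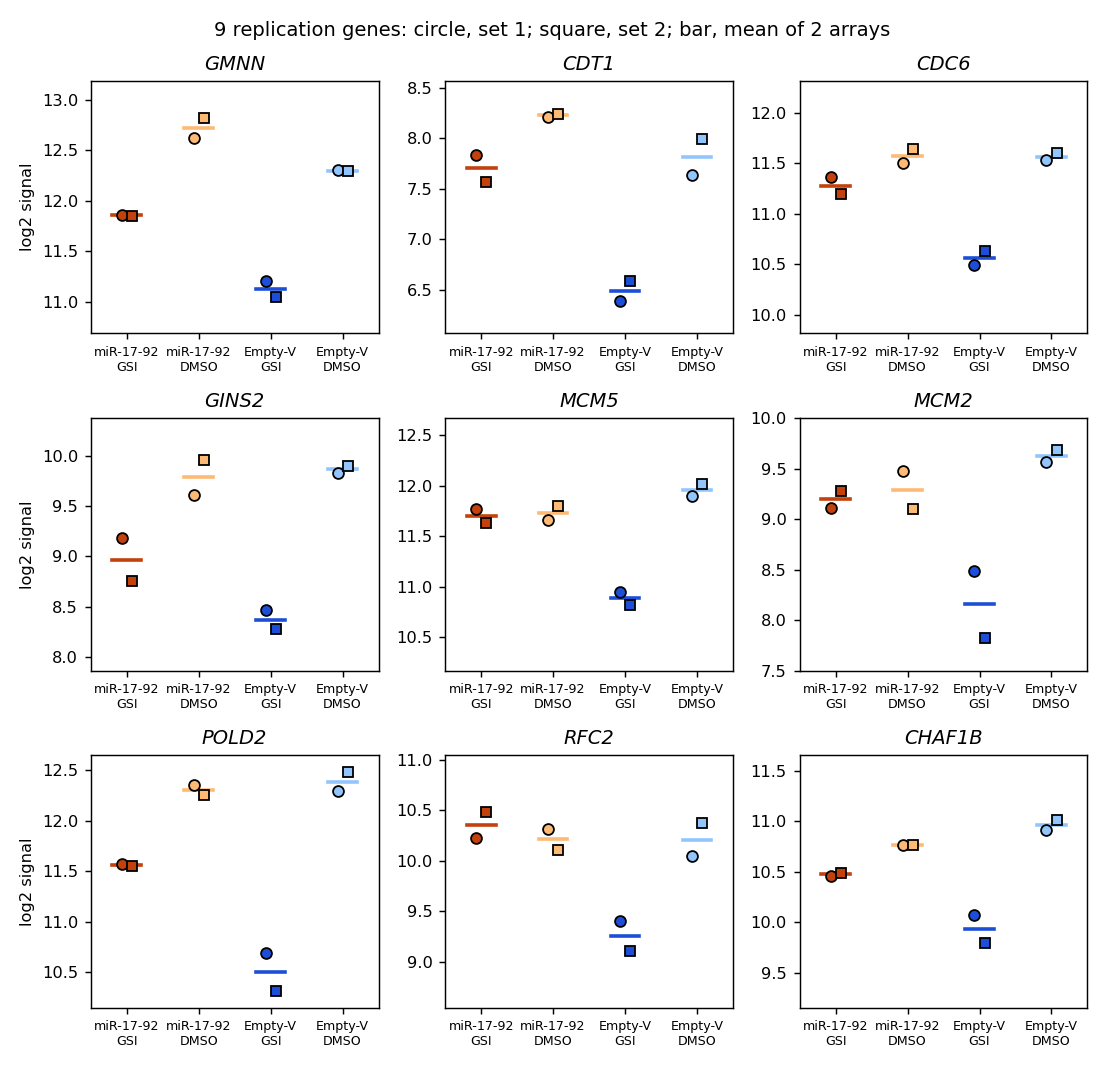
Log2 signal (vertical axis) of 9 replication genes in each array of the 4 groups (horizontal axis); circles are set 1, squares set 2 and bars the mean of 2 arrays, and each panel spans the same range of log2 units. Empty-V GSI is the lowest group in every panel, and in GMNN, CDT1, CDC6, GINS2, POLD2 and CHAF1B both miR-17-92 GSI points lie below both miR-17-92 DMSO points.

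Of the 10 polymerase and primase genes, POLD2, POLD3, POLE2, POLE3 and PRIM1 fell under GSI in Empty-V cells. The median of the step was −0.17 for GSI in miR-17-92 cells, −0.71 in Empty-V cells and 0.43 for miR-17-92 over Empty-V under GSI, and all 10 had Empty-V GSI arrays below the Empty-V DMSO arrays. POLD2, the accessory subunit that holds the polymerase delta complex together, had the largest change of the 50 genes. Its log2 signal was 11.57 and 11.55 in miR-17-92 GSI, 12.36 and 12.26 in miR-17-92 DMSO, 10.69 and 10.32 in Empty-V GSI, and 12.30 and 12.48 in Empty-V DMSO arrays. The DMSO arrays of both kinds of cell overlapped, and the miR-17-92 GSI arrays lay between them and the Empty-V GSI arrays. POLD2 was 3.69-fold lower under GSI in Empty-V cells (−1.88 ± 0.18, adjusted p = 0.000342) and 2.08-fold higher in miR-17-92 than in Empty-V cells under GSI (1.06 ± 0.18, adjusted p = 0.0356), with −0.75 ± 0.18 under GSI in miR-17-92 cells (adjusted p = 0.0846).

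PRIM1, the catalytic subunit of primase, had 11.29 and 11.31 in miR-17-92 GSI, 11.63 and 11.49 in miR-17-92 DMSO, 10.78 and 10.82 in Empty-V GSI, and 11.40 and 11.90 in Empty-V DMSO arrays. It fell by 0.85 ± 0.19 in Empty-V cells (adjusted p = 0.0297, and 0.0655 with the block). POLE3, a histone-fold subunit of polymerase epsilon, had 10.01 and 9.92 in miR-17-92 GSI, 10.13 and 10.27 in miR-17-92 DMSO, 9.80 and 9.22 in Empty-V GSI, and 10.38 and 10.52 in Empty-V DMSO arrays. It fell by 0.94 ± 0.21 in Empty-V cells (adjusted p = 0.0267, and 0.0586 with the block). In both genes the Empty-V GSI arrays were the lowest of the 8.

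For POLD3 and POLA2 the miR-17-92 arrays under GSI lay above those under DMSO. POLD3, a further accessory subunit of polymerase delta, had 10.65 and 10.64 in miR-17-92 GSI, 10.36 and 10.57 in miR-17-92 DMSO, 10.16 and 9.81 in Empty-V GSI, and 10.77 and 10.70 in Empty-V DMSO arrays. It fell by 0.75 ± 0.18 in Empty-V cells (adjusted p = 0.0355, and 0.0857 with the block), with 0.18 ± 0.18 in miR-17-92 cells (adjusted p = 0.699). POLA2, the second subunit of polymerase alpha, had 10.60 and 10.83 in miR-17-92 GSI, 10.30 and 10.41 in miR-17-92 DMSO, 10.25 and 9.98 in Empty-V GSI, and 10.64 and 10.70 in Empty-V DMSO arrays. Its estimates were 0.36 ± 0.17 in miR-17-92 cells (adjusted p = 0.379) and −0.56 ± 0.17 in Empty-V cells (adjusted p = 0.09).

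Among the 14 genes of the clamp and the later steps, RFC2, RPA3, RNASEH2A and CHAF1B fell under GSI in Empty-V cells. The median of the step was −0.05 for GSI in miR-17-92 cells, −0.58 in Empty-V cells and 0.47 for miR-17-92 over Empty-V under GSI, and all 14 had Empty-V GSI arrays below the Empty-V DMSO arrays. RFC2, a subunit of the clamp loader, had 10.23 and 10.48 in miR-17-92 GSI, 10.32 and 10.11 in miR-17-92 DMSO, 9.40 and 9.11 in Empty-V GSI, and 10.05 and 10.37 in Empty-V DMSO arrays. The other 3 groups overlapped, and the Empty-V GSI arrays stood apart. RFC2 was 1.94-fold lower under GSI in Empty-V cells (−0.96 ± 0.19, adjusted p = 0.0202, and 0.0503 with the block) and 2.14-fold higher in miR-17-92 than in Empty-V cells under GSI (1.10 ± 0.19, adjusted p = 0.0396). RFC3, another loader subunit, had 11.24 and 11.40 in miR-17-92 GSI, 11.54 and 11.64 in miR-17-92 DMSO, 10.99 and 10.75 in Empty-V GSI, and 11.56 and 11.40 in Empty-V DMSO arrays, and did not pass in Empty-V cells (−0.61 ± 0.17, adjusted p = 0.062).

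CHAF1B, a subunit of the factor that places histones on new DNA, had 10.46 and 10.49 in miR-17-92 GSI, 10.77 and 10.77 in miR-17-92 DMSO, 10.07 and 9.80 in Empty-V GSI, and 10.92 and 11.01 in Empty-V DMSO arrays. No 2 groups overlapped, and CHAF1B was 2.04-fold lower under GSI in Empty-V cells (−1.03 ± 0.16, adjusted p = 0.00626), with −0.30 ± 0.16 in miR-17-92 cells (adjusted p = 0.453). Its partner CHAF1A had 10.90 and 11.11 in miR-17-92 GSI, 11.06 and 11.41 in miR-17-92 DMSO, 10.67 and 10.87 in Empty-V GSI, and 11.44 and 11.38 in Empty-V DMSO arrays (−0.64 ± 0.18 in Empty-V cells, adjusted p = 0.0696). The clamp gene PCNA did not pass, with −0.14 ± 0.16 in miR-17-92 cells and −0.30 ± 0.16 in Empty-V cells (adjusted p = 0.75 and 0.29).

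The 3 subunits of RPA all had estimates above 0 under GSI in miR-17-92 cells and below 0 in Empty-V cells. RPA3, the smallest subunit, had 10.17 and 9.83 in miR-17-92 GSI, 9.89 and 10.00 in miR-17-92 DMSO, 9.23 and 8.94 in Empty-V GSI, and 9.88 and 10.09 in Empty-V DMSO arrays. It fell by 0.90 ± 0.19 in Empty-V cells (adjusted p = 0.0227, and 0.0547 with the block), and its miR-17-92 arrays overlapped (0.06 ± 0.19, adjusted p = 0.931). RPA1, the large subunit that binds the single strand, had 12.86 and 12.91 in miR-17-92 GSI, 12.76 and 12.81 in miR-17-92 DMSO, 12.53 and 12.33 in Empty-V GSI, and 12.59 and 12.66 in Empty-V DMSO arrays, with 0.10 ± 0.16 in miR-17-92 cells and −0.20 ± 0.16 in Empty-V cells (adjusted p = 0.828 and 0.528).

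The size of the response was set beside the promoter words. The 20 members with an E2F-type word had a median log2 fold change of −0.64 for GSI in Empty-V cells, and 9 of them fell, while the 24 members with a window but no such word had −0.60, and 9 of them fell. For miR-17-92 over Empty-V under GSI the medians were 0.45 and 0.46. POLD2, RFC2 and CHAF1B had no such word in the window, whereas GMNN, CDT1 and GINS2 did, as did MCM8 and PCNA. The 2 sets of members overlapped in the size of the change, from −1.49 to −0.09 with the word and from −1.88 to 0.30 without it.

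Genes working beside the replication machinery were described in the same way, for GSI in Empty-V cells, where 3.66% of all probe sets were called lower and 3.8% higher. Of 37 other replication factors, 7 fell and none rose, with a median of −0.29, and none of the 7 passed with the set as a block. UHRF1, SSRP1 and MCMBP had the smallest p across both kinds of cell (−0.79, −0.79 and −0.69 in Empty-V cells, with adjusted p = 0.0588, 0.0628 and 0.102 with the block). Of 10 genes of deoxynucleotide supply, DCTPP1 (−1.37) and the thymidine kinase gene TK1 (−1.10) fell, with a median of −0.29, and both passed with the block. Of 24 genes of the E2F and pocket protein network, RBL2 (0.98) and CDKN1B (0.68), which restrain the G1 to S transition, rose and 4 fell, with a median of 0.03. Those that fell were E2F1 (−1.12), MYBL2 (−0.78), E2F5 (−0.64) and TFDP1 (−0.59). None of the other CDK inhibitor and pocket protein genes passed, with estimates from −0.36 (CDKN1A) to 0.69 (CDKN2D). With the block RBL2 and E2F1 passed, while CDKN1B (adjusted p = 0.103) and the other 3 that fell did not. RBL2 was also lower in miR-17-92 than in Empty-V cells under GSI (−1.18 ± 0.18, adjusted p = 0.0286, and 0.0861 with the block). Of 31 mitotic genes, CDC20, MAD2L1 and PTTG1 fell, with a median of −0.36, and none of the 3 passed with the block (adjusted p = 0.0906, 0.117 and 0.057). For miR-17-92 over Empty-V under GSI, most genes of these lists also had estimates above 0, against 47.7% of all probe sets. They were 27 of 37 other replication factors (median 0.21) and 8 of 10 deoxynucleotide genes (0.28). In the E2F and pocket protein network they were 15 of 24 (0.08), and in mitosis 26 of 31 (0.32). The shares of these lists that fell, beside 21 of 50 replication genes, are a description of the lists and were not tested against each other.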

How the data were processed

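Total RNA of CUTLL1 cells was hybridised to 8 Clarion S Human arrays, and the sample labels give 4 groups of 2 arrays. The authors summarised probes with RMA (in its signal-space form) in Transcriptome Analysis Console on hg38 and deposited log2 values, which were used as deposited (1.97 to 18.49). This normalization brings the arrays to a similar distribution (medians 5.30 to 5.36), so a shift shared by all genes may not be seen, and the number of arrays limits the precision. Of 21448 probe sets, 17709 have 1 gene symbol, 0 several and 3739 none in the platform annotation. Each member has 1 probe set.

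Group means were fitted to all 8 arrays in R 4.3.3 with limma 3.58.1 (lmFit, eBayes, 4 residual and 5.29 prior degrees of freedom). Benjamini-Hochberg adjustment was run over all 21448 probe sets of a comparison, and 0.05 was the threshold. Errors after ± are standard errors. The script was tested on simulated data. Changes of 0.5 log2 units were recovered in 4% of cases for GSI in either kind of cell, and in 5% for the cluster under GSI. For changes of 1 log2 unit the shares were 72% in Empty-V cells, 70% in miR-17-92 cells and 75% for the cluster under GSI. In each simulated comparison 100 of the 21448 probe sets were changed at each size. In the data 785 were called lower for GSI in Empty-V cells alone, so the shares recovered there may differ. The members, steps and other lists were chosen with earlier results of these data known. Values in every array were given, within each step, for the 3 members with the smallest p for GSI across both kinds of cell, the 2 with the smallest p for the cluster under GSI, and the member that changed least with GSI across both. ORC1 to ORC4, ORC6, CDC45, CDC7, DBF4, MCM10, PCNA and the genes beside the members are named by test, list or role, after their values were seen.

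The titles number the arrays as sets, and the study describes 2 independent experiments, so the set was taken to pair the arrays. Deviations of same-numbered arrays from their group means correlated at −0.24 to −0.192 between groups, negative in all 6 pairs of groups. A set effect shared by the groups would by itself make these values positive, and unrelated arrays would show no correlation. Neither was seen, and the source of the negative values was not tested. The pairing rests on the description alone. The main fits leave the set out, and fewer members passed with it as a block wherever any had passed. Alternatives were a block for the set, a looser threshold of 0.1, removal of dim probe sets, quantile normalization, an intensity trend with robust prior, the compared arrays alone and each array left out. Summaries used Python 3.11.15, numpy 2.4.6 and pandas 2.3.3, and figures matplotlib 3.10.9. Promoter and miRNA sequences are those of RefSeq (GRCh38.p14).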

Additional observations from a re-analysis of the deposited data

Results flagged for a closer look

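In 5 replication genes the arrays of each kind of cell moved in opposite directions under GSI without overlap between GSI and DMSO. The share of all probe sets that did so was not counted. Taken 1 kind of cell at a time, 24.5% of probe sets were lower without overlap in Empty-V cells and 22.8% higher in miR-17-92 cells. The 5 genes are therefore not read as a trait of this list. For each of them the difference of the responses (miR-17-92 minus Empty-V) was then read from limma. It was 0.93 for POLD3 (adjusted p = 0.236), 0.92 for POLA2 (adjusted p = 0.236), 0.66 for ORC1 (adjusted p = 0.301), 0.30 for RPA1 (adjusted p = 0.612) and −0.46 for ORC5 (adjusted p = 0.454). None passed, so opposite responses were not established by the test. ORC5 was the 1 gene of the 5 that was higher under GSI in Empty-V cells and lower in miR-17-92 cells.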

How the results depend on the processing

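No called gene changed direction under any alternative run, and the medians changed little except where named. With the set as a replicate block the called members numbered 9 across both kinds of cell, 10 in Empty-V cells, 0 in miR-17-92 cells and 0 for the cluster under GSI, against 15, 21, 1 and 3 without it. A pairing crossed between the sets, chosen after seeing the data, gave 15, 20, 0 and 1. At a threshold of 0.1 the counts were 25, 32, 3 and 11. Without dim probe sets, which leaves 10724 to adjust over, they were 27, 34, 3 and 14. With an intensity trend and robust prior they were 29, 34, 4 and 20, and 2 for the difference in response. With only the arrays compared they were 10 in Empty-V cells, 0 in miR-17-92 cells and 0 for the cluster under GSI. The share of all probe sets called was counted for the main and block fits only. A larger count in another setting is therefore not read as a stronger result for the members. Leaving out 1 array at a time gave 7 to 12 across both kinds of cell, 5 to 20 in Empty-V cells, 0 to 1 in miR-17-92 cells and 0 to 1 for the cluster under GSI. The medians of the 50 genes then ranged from −0.42 to −0.36 across both, −0.71 to −0.60 in Empty-V cells, −0.19 to −0.12 in miR-17-92 cells, 0.44 to 0.57 for the cluster under GSI, −0.03 to 0.01 for it under DMSO and 0.45 to 0.59 for the difference in response. For the cluster under DMSO and the difference in response the block, the other alternatives and each array left out changed no call, apart from the 2 named. Averaging the probe sets of a gene was not run, since each member has 1. The cause of the changes was not tested. The number of arrays, 2 a group, limits what could be called.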
